A study of Mus musculus with 10 samples.

Results

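Lower-airway mast cells of mice were examined here for 7 genes of serotonin and histamine synthesis and transport. They were Tph1 and Ddc for serotonin synthesis, Hdc for histamine synthesis, Slc18a2 for loading of both amines into vesicles, Slc6a4 for serotonin reuptake, and Maoa and Maob for breakdown. They were taken by symbol from 22815 symbols in the table of raw counts. The symbols were chosen by name with the levels and fold changes of these same 10 libraries already known from an earlier analysis; the rule sets no threshold and singles out no contrast. The p-values below therefore describe where the members stand in a fit of all genes and are not independent evidence about the set.

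All cells came from wild type C57BL/6 mice aged 5 to 7 weeks and were sorted as mast cells in 2 populations, B7hi and B7low, for bulk SmartSeq2 RNA-seq. Mice received either 3 µg of house dust mite extract (HDM) or saline alone, in 20 µL into the nose, 2 times a week for 3 weeks. The groups were B7hi HDM (n = 3 libraries), B7hi saline (n = 2), B7low HDM (n = 3) and B7low saline (n = 2). The series title speaks of inducible and constitutive mast cells, and the labels do not say which sorted population is which. Whether each library came from its own mouse or a pool is not stated in the labels, so the p-values rest on the spread among libraries, and part of that spread may be technical.

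Mast cells store amines in acidic secretory granules and release them when activated. Tryptophan hydroxylase 1, encoded by Tph1, makes 5-hydroxytryptophan from tryptophan with tetrahydrobiopterin as its cofactor, and aromatic amino acid decarboxylase (Ddc) turns that product into serotonin. Histidine decarboxylase (Hdc) makes histamine from histidine in a single step; both decarboxylases need pyridoxal phosphate. The vesicular monoamine transporter 2 (Slc18a2) uses the proton gradient of the granule to load amines, the plasma membrane transporter Slc6a4 takes serotonin back up from outside, and the mitochondrial monoamine oxidases Maoa and Maob oxidise amines. Rodent mast cells are known for holding serotonin as well as histamine.

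The count totals of the 10 libraries ran from 525983 to 1725818. Levels are given in CPM, counts scaled to a common library size over the genes tested after TMM scaling, and 3 counts corresponded to between 1.57 and 5.87 CPM. Mast cell genes were abundant in every library, with Kit, the stem cell factor receptor, at 2693 to 5642 CPM and Ms4a2, a subunit of the IgE receptor, at 640.4 to 1130 CPM. The summed level of the 10 mast cell genes lay lower in B7hi than in B7low, on the same side as most members. It was 21792 to 33086 CPM in B7hi HDM and 16468 to 19222 CPM in B7hi saline, and 51078 to 69284 CPM in B7low HDM and 55973 to 93622 CPM in B7low saline. The granule proteases Cma1, Cpa3 and Tpsb2 took most of that difference. Their saline means were 1766, 5186 and 382 CPM in B7hi against 25771, 20638 and 13172 CPM in B7low. The part of this in the members' differences was not tested. Endothelial and B cell markers were highest in the B7low HDM libraries, where the 10 endothelial genes summed to 68.9 to 710.2 CPM, and to 27.1 to 42.0 CPM across the 7 remaining libraries. The 5 B cell genes in the table summed to 77.1 to 547.6 CPM in B7low HDM and 3.75 to 62.6 CPM elsewhere, and the part of either cell type in the results was not tested. The 6 basophil genes summed to 2900 to 5326 CPM in B7hi HDM, 3219 to 4781 CPM in B7hi saline, 2556 to 4224 CPM in B7low HDM and 2114 to 2786 CPM in B7low saline. Cd69 had the highest mean of the 6 in each group. It averaged 2219 and 2106 CPM in B7hi HDM and B7hi saline, and 1667 and 1101 CPM in B7low HDM and B7low saline. Mcpt8, a basophil protease, averaged 1220 and 764 CPM in B7hi HDM and B7hi saline, against 278 and 123 CPM in B7low HDM and B7low saline. Ifitm1 averaged 845 and 1053 CPM in these B7hi groups, against 395 and 172 CPM in these B7low groups. Prss34 and Cd200r3 went the other way, with averages of 28.4 and 161 CPM in B7hi HDM, against 489 and 419 CPM in B7low HDM; the part of basophil RNA in the members' differences was not tested. In bulk RNA, fewer cells that express a gene and less RNA per cell cannot be told apart.

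Each gene was fitted with edgeR's quasi-likelihood test over all 10 libraries, and a gene was called when its Benjamini-Hochberg adjusted p over the 10533 genes tested was under 0.05. All 7 members entered the fit, although Slc6a4 did so through its B7low libraries, where it is high. Fold changes are on the log2 scale, B7hi over B7low or HDM over saline, with an approximate standard error (SE).

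Between the populations, Slc6a4 was the member that differed most. It was close to the detection floor in B7hi cells and well expressed in B7low cells, whichever challenge the mice had received. In B7hi HDM libraries Slc6a4 had 12, 5 and 8 counts, or 7.50, 9.79 and 5.48 CPM, and in B7hi saline libraries 3 and 12 counts, or 2.27 and 6.26 CPM. In B7low HDM libraries it had 333, 419 and 534 counts, or 451.4, 272.5 and 337.4 CPM, and in B7low saline libraries 348 and 237 counts, or 608.5 and 396.3 CPM. Every B7hi library thus lay far below every B7low library. The B7hi mean was 2.15% of the B7low mean with HDM and 0.849% with saline. Slc6a4 was lower in B7hi with HDM by a log2 fold change of -5.61 ± 0.37 (SE, adjusted p = 3.3e-07) and with saline by -6.76 ± 0.47 (adjusted p = 5.2e-07). Within a population, HDM gave log2 differences of 0.65 ± 0.51 in B7hi and -0.51 ± 0.30 in B7low (adjusted p = 1.00 and 0.64), and neither passed. Slc6a4 lies at chr11:76998603-77032340 on the plus strand of GRCm38 and overlaps the antisense model Gm12343. The strand setting of the counting is not given in the sources used here, so reads of such antisense partners could be included.

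Tph1 and Ddc, the 2 enzymes of serotonin synthesis, shared another pattern: both were low in B7hi saline libraries and high in the other 3 groups. Tph1 had 943.2, 585.2 and 748.6 CPM in B7hi HDM and 39.3 and 152.4 CPM in B7hi saline. It had 824.1, 1189 and 592.7 CPM in B7low HDM and 1021 and 903.0 CPM in B7low saline. The B7hi saline libraries were the lowest 2 of the 10, while the B7hi HDM range lay within that of B7low HDM at its upper end and just below it at its lower end. Ddc had 71.3, 21.5 and 71.2 CPM in B7hi HDM and 2.27 and 11.5 CPM in B7hi saline, compared with 56.9, 93.7 and 72.7 CPM in B7low HDM and 69.9 and 68.6 CPM in B7low saline. It was again lowest in both B7hi saline libraries, where it had 3 and 22 counts, with B7hi HDM library 2 next.

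With saline, Tph1 and Ddc were both lower in B7hi. The B7hi saline mean was 9.97% of the B7low saline mean for Tph1 and 9.93% for Ddc. The log2 fold changes were -3.31 ± 0.53 for Tph1 (SE, adjusted p = 0.0024) and -3.22 ± 0.62 for Ddc (adjusted p = 0.0051). The Tph1 call held when any 1 library was left out (-4.62 to -2.64), and the Ddc call was lost without B7hi saline library 1 (-2.56). That fit left 1 B7hi saline library, so only the effect size is given. With HDM, the B7hi to B7low differences were -0.19 ± 0.39 for Tph1 (adjusted p = 0.89) and -0.39 ± 0.42 for Ddc (adjusted p = 0.76), and neither passed.

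HDM against saline within B7hi gave ratios of means of 7.92 for Tph1 and 7.95 for Ddc. All 3 B7hi HDM libraries were above both B7hi saline libraries for each gene. The log2 fold changes were 2.97 ± 0.50 for Tph1 (SE, unadjusted p = 4.9e-05, adjusted p = 0.090) and 2.95 ± 0.57 for Ddc (adjusted p = 0.11), so neither was called by edgeR. DESeq2 called both, at 3.00 for Tph1 (adjusted p = 1.2e-08) and 2.98 for Ddc (adjusted p = 2.7e-04). The B7hi saline libraries differed from each other. Without the higher of them, B7hi saline library 2, edgeR gave 4.27 for Tph1 and 4.58 for Ddc. Without B7hi saline library 1 it gave 2.31 for Tph1 and 2.29 for Ddc. Each of these fits left 1 B7hi saline library, so only effect sizes are given. For Ddc a call by edgeR appeared without B7hi HDM library 2 (3.26, adjusted p = 0.027). For Tph1 the edgeR adjusted p rose to 0.35 without B7hi HDM library 1. Over the 10 fits that each left out 1 library, edgeR called Tph1 in 1 and Ddc in 2.

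In B7low cells the HDM effect was -0.15 ± 0.44 for Tph1 and 0.11 ± 0.49 for Ddc (adjusted p = 0.95 and 0.97). The difference between the HDM effects of the 2 populations, tested as an interaction, was 3.12 ± 0.64 for Tph1 (SE, adjusted p = 0.20) and 2.83 ± 0.74 for Ddc (adjusted p = 0.26). Neither was called by edgeR, while DESeq2 called both (adjusted p = 2.1e-04 for Tph1 and 0.042 for Ddc). Without B7hi saline library 2, edgeR gave interactions of 4.43 for Tph1 and 4.48 for Ddc. Without B7hi saline library 1 they were 2.43 and 2.15. Each of these fits left 1 B7hi saline library, so only effect sizes are given. Leaving out B7hi HDM library 1 moved the edgeR adjusted p of the Tph1 interaction to 0.35. Over the 10 fits that each left out 1 library, edgeR called the Tph1 interaction in 1 and the Ddc interaction in 0.

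**Figure D1:**
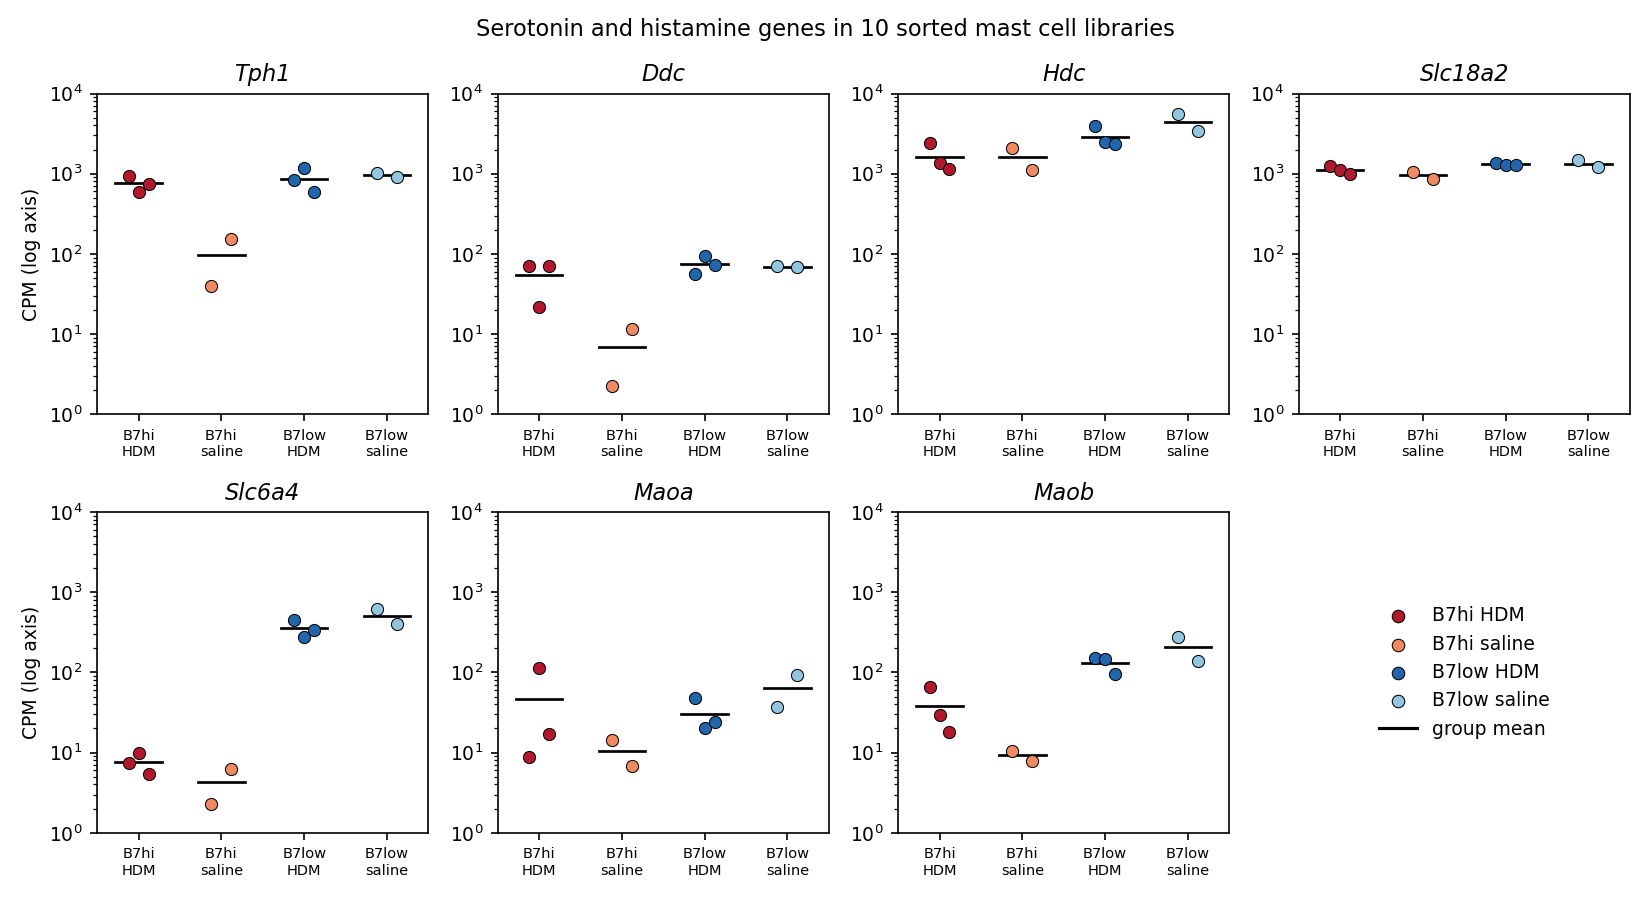
CPM (log axis) of the 7 genes in each of the 10 libraries, in the order B7hi HDM, B7hi saline, B7low HDM and B7low saline; each point is 1 library and each bar a group mean. Slc6a4 is at 2.27 to 9.79 CPM in all 5 B7hi libraries and at 272.5 CPM or more in all 5 B7low libraries, while Tph1 and Ddc are lowest in the 2 B7hi saline libraries.

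Across the 10 libraries the log2 levels of Tph1 and Ddc had a Pearson correlation of 0.96, the highest between any 2 members; the libraries share the group differences, and the value is a description. Ddc per kilobase of exon was between 5.09% and 17.0% of Tph1 per kilobase in every library, so the ratio moved much less than either level. Tph1 lies at chr7:46644641-46672537 on the minus strand and Ddc at chr11:11814101-11898144 on the minus strand, where it overlaps the antisense model 1700042O10Rik. Because the levels of these genes followed each other, their promoters are shown beside that of Slc6a4, the member that differed most between the populations. Each runs from 250 bases before to 50 after a RefSeq start (GRCm38.p6), and Tph1 and Ddc have 2 starts each. Capitals mark GATA cores (GATA on either strand, so TATC counts too), the core motif of GATA2, and E-boxes (CANNTG on either strand). GATA2 and MITF are known regulators of mast cell genes. CANNTG is the general E-box and is broader than the motif of MITF, so a marked E-box need not be a MITF site.
Tph1 start 1, chr7:46672488-46672787, minus strand: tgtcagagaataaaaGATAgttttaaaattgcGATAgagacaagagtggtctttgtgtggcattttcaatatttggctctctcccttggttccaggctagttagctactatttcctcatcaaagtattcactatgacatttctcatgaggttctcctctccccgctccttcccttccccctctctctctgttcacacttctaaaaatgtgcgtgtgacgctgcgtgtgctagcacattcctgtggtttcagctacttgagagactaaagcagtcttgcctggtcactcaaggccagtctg
Tph1 start 2, chr7:46667328-46667627, minus strand: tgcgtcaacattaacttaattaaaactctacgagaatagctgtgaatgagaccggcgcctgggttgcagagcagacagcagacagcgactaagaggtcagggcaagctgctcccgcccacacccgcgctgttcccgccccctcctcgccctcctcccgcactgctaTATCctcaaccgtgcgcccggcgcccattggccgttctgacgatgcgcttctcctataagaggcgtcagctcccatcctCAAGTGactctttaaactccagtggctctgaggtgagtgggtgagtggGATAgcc
Ddc start 1, chr11:11898095-11898394, minus strand: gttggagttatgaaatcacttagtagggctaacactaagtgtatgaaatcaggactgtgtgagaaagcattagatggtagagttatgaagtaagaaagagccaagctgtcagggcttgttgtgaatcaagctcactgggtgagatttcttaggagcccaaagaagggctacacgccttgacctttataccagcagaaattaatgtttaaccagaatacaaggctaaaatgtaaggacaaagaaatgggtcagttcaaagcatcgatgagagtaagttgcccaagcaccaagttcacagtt
Ddc start 2, chr11:11890359-11890658, minus strand: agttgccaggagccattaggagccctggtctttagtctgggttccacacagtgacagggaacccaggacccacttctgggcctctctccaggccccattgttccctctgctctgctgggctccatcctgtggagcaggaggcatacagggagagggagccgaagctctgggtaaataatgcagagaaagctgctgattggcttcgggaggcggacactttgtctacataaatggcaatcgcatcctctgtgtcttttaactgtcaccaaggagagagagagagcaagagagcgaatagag
Slc6a4, chr11:76998347-76998646, plus strand: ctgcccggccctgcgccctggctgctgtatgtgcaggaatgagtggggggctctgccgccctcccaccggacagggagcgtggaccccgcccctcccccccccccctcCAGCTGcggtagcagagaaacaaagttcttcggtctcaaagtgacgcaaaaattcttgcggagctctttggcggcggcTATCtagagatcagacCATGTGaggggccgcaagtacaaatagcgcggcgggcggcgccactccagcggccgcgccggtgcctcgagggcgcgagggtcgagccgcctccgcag
The 2 Tph1 windows held 2 GATA cores each, with 1 E-box at start 2 and 0 at start 1, whereas both Ddc windows held 0 of either motif. The Slc6a4 window held 1 GATA core and 2 E-boxes. Of the other members with a window, Hdc had 2 GATA cores and 1 E-box, Slc18a2 3 and 1, and Maoa 7 and 1. Among 32851 promoter windows in the RefSeq table, 57.9% held a GATA core, 72.3% an E-box and 43.6% both, so the motifs are common at this length. Gene counts do not show which start was used.

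Hdc was the most abundant of the 7 per kilobase of exon in all 4 groups. It had 2410 CPM, 1358 CPM and 1143 CPM in B7hi HDM and 2109 and 1100.0 CPM in B7hi saline, compared with 3900 CPM, 2496 CPM and 2331 CPM in B7low HDM and 5515 and 3396 CPM in B7low saline. With saline the B7hi libraries were both below the B7low libraries; with HDM the ranges overlapped, B7hi HDM library 1 being above B7low HDM library 3. Hdc was lower in B7hi with saline, by a log2 fold change of -1.47 ± 0.42 (SE, adjusted p = 0.047), and the B7hi mean was 36.0% of the B7low mean. That call was close to the threshold, and it was lost when any of 7 single libraries was left out. Without B7hi HDM library 2, B7low HDM library 2 or B7low HDM library 3, edgeR gave adjusted p = 0.059, 0.057 and 0.052. The call was also lost without B7hi saline library 1 or 2, or B7low saline library 1 or 2. Each of those fits left 1 library in a saline group, so no p is given. Over the 10 fits that left out 1 library, the log2 fold change ran from -2.01 to -1.04. DESeq2 over all 10 libraries called the Hdc difference with saline too (adjusted p = 0.0043). With HDM the difference was -0.83 ± 0.34 (edgeR adjusted p = 0.27) and did not pass.

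Unlike Tph1, Hdc in B7hi cells was at nearly the same mean with either challenge. The HDM effect on Hdc was 0.03 ± 0.37 in B7hi (adjusted p = 1.00) and -0.62 ± 0.37 in B7low (adjusted p = 0.64). The ratio of Tph1 to Hdc transcript therefore differed by library. Tph1 per kilobase was 40.5%, 44.6% and 67.8% of Hdc per kilobase in B7hi HDM and 1.93% and 14.3% in B7hi saline. In B7low HDM it was 21.9%, 49.3% and 26.3%, and in B7low saline 19.2% and 27.5%. The B7hi saline libraries had the lowest of the 10 shares, and the other 3 groups overlapped in part. Hdc lies at chr2:126593667-126619299 on the minus strand.

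Slc18a2, the granule loader used by both routes, had the smallest ratio of its highest to its lowest library among the 7. It had 1263, 1102 and 991.8 CPM in B7hi HDM and 1046 and 870.3 CPM in B7hi saline, compared with 1346, 1283 and 1299 CPM in B7low HDM and 1474 and 1206 CPM in B7low saline. The B7hi libraries were below the B7low libraries under each challenge, but by little: the B7hi mean was 85.4% of the B7low mean with HDM and 71.5% with saline. The log2 differences were -0.23 ± 0.21 with HDM (SE, adjusted p = 0.72) and -0.48 ± 0.26 with saline (adjusted p = 0.30), and neither passed. With both challenges averaged the difference was -0.36 ± 0.17 (adjusted p = 0.20) by edgeR, and DESeq2 called it (adjusted p = 0.044). Slc18a2 lies at chr19:59260896-59296012 on the plus strand, and the antisense model Gm29261 overlaps its start.

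Of the breakdown enzymes, Maob was lower in B7hi under both challenges. It had 65.6, 29.4 and 17.8 CPM in B7hi HDM and 10.6 and 7.83 CPM in B7hi saline, compared with 153.2, 145.7 and 96.0 CPM in B7low HDM and 278.0 and 140.5 CPM in B7low saline. Every B7hi library was below every B7low library, and the B7hi saline libraries were the lowest 2. The log2 fold change was -4.51 ± 0.58 with saline (SE, adjusted p = 4.0e-04) and -1.76 ± 0.42 with HDM (adjusted p = 0.034). The saline call held in each of the 10 fits that left out 1 library (-4.90 to -3.90). The call with HDM was lost without B7hi HDM library 2 (adjusted p = 0.12), B7hi HDM library 3 (0.11), B7low HDM library 1 (0.12) or B7low HDM library 2 (0.091). HDM against saline gave 2.08 ± 0.55 in B7hi (adjusted p = 0.38) and -0.67 ± 0.43 in B7low (adjusted p = 0.67), and the interaction was 2.75 ± 0.70 (adjusted p = 0.24); none passed. DESeq2 called the B7hi effect of HDM on Maob (adjusted p = 0.026) and its interaction (adjusted p = 0.032).

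Maoa did not follow Maob, although the 2 genes lie tail to tail on the X chromosome, at chrX:16619698-16687818 (plus strand) and chrX:16709282-16817366 (minus strand), with 21463 bases between them. It had 8.75, 113.5 and 17.1 CPM in B7hi HDM and 14.4 and 6.79 CPM in B7hi saline, compared with 47.4, 20.2 and 24.0 CPM in B7low HDM and 36.7 and 91.97 CPM in B7low saline. Its levels spread widely within groups, with B7hi HDM library 2 and B7low saline library 2 the highest of the 10. The same 2 libraries stood apart in the nuclear noncoding RNA Kcnq1ot1, at 12133 and 6956 CPM, where the 8 remaining libraries had 806.3 to 2794 CPM, and the part of this in the Maoa values was not tested. Maoa differences were -2.63 ± 1.13 with saline (SE, adjusted p = 0.22) and 0.48 ± 0.88 with HDM (adjusted p = 0.88), and neither passed. Without B7hi HDM library 2 the saline difference was called (adjusted p = 0.021) and the HDM difference was -1.24. Without both libraries the HDM difference was -1.22.

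**Figure D2:**
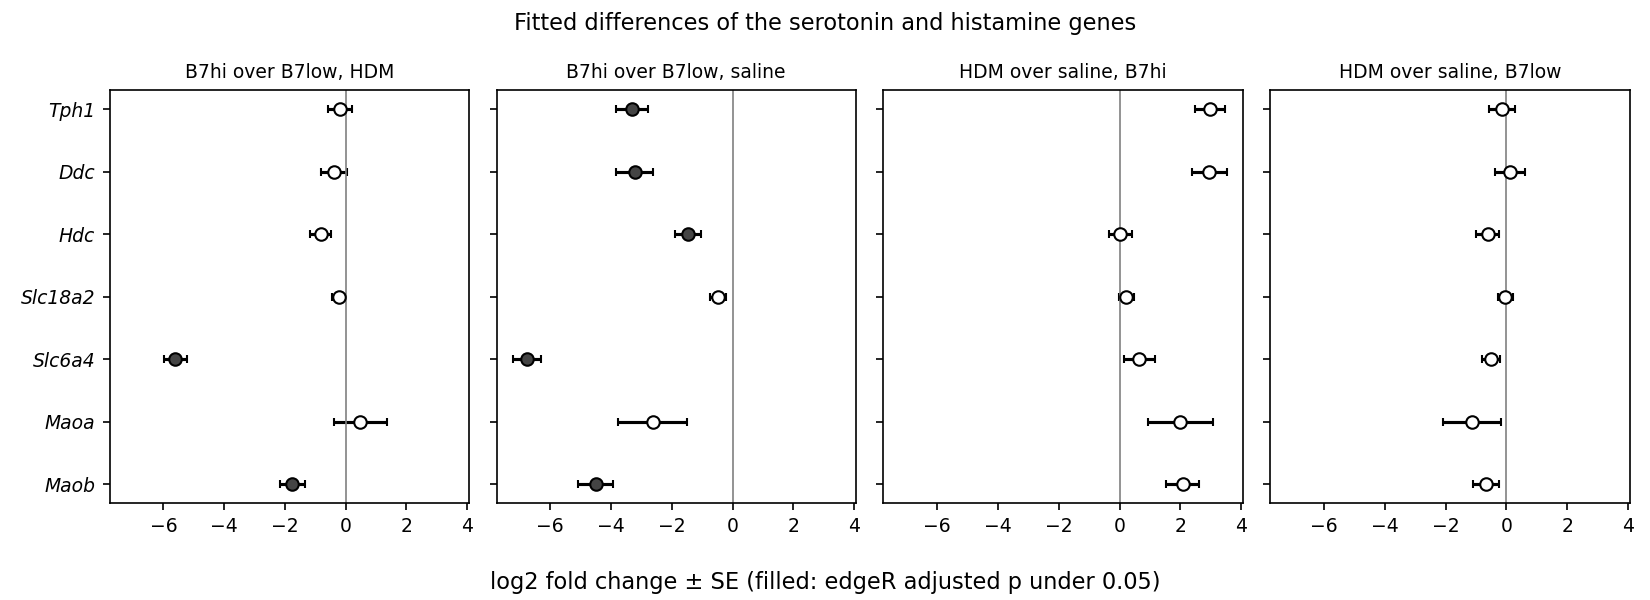
Log2 fold changes of the 7 genes in the 2 B7hi against B7low comparisons and in the 2 HDM against saline comparisons, as estimate and 1 standard error; filled points passed an adjusted p of 0.05 over all genes tested. Slc6a4 is near -6 in both population comparisons (-5.61 with HDM and -6.76 with saline), whereas Tph1 and Ddc are near -3 with saline (-3.31 and -3.22) and near 0 with HDM.

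Counted together, 5 of the 7 members were lower in B7hi with saline and 0 were higher; over all genes tested, 3.64% were called lower, 2.91% higher and 6.54% in either direction. The median log2 difference was -3.22 over the members and 0.03 over all genes tested. All 7 had B7hi saline libraries that did not overlap B7low saline libraries, as 51.9% of all genes did in either direction, 23.4% being lower and 28.5% higher. With HDM, 2 of 7 were lower and 0 higher, against 2.15% lower, 0.693% higher and 2.84% in either direction over all genes, and the median was -0.39 against 0.03. With HDM, Slc18a2, Slc6a4 and Maob did not overlap, each lower in B7hi (3 of 7, against 20.5% of all genes in either direction, 10.7% lower and 9.76% higher). Averaged over both challenges, 5 of 7 were lower, with a background of 6.08%: Slc6a4 at -6.19 ± 0.30 (SE, adjusted p = 2.4e-09), Maob at -3.14 ± 0.36, Ddc at -1.81 ± 0.37, Tph1 at -1.75 ± 0.32 and Hdc at -1.15 ± 0.27. The averaged Hdc call (adjusted p = 0.011) was lost without B7hi saline library 2 or B7low saline library 1, fits that each left 1 library in a saline group.

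For HDM against saline in B7hi, edgeR called 0 of 7 members (3 at an unadjusted p under 0.05), where 0.00949% of all genes were called, and DESeq2 called 3, where it called 0.522% of all genes. Tph1, Ddc and Maob had B7hi HDM libraries that were all above the B7hi saline libraries, as 10.2% of all genes did. In B7low, edgeR called 0 of 7 (0 at an unadjusted p under 0.05), again with a background of 0.00949%, DESeq2 called 0 (0.18% of all genes), and no member's HDM and saline libraries were free of overlap, against 23.9% of all genes in either direction and 13.2% with HDM higher. For the interaction, edgeR called 0 of 7 (3 unadjusted), with a background of 0%, and DESeq2 called 3, with a background of 0.418%. In the population comparisons DESeq2 called 6 members with saline, 2 with HDM and 6 averaged, and over all genes 8.61%, 4.81% and 13.4%. The population comparisons and the challenge comparisons share libraries, so their directions are not independent of each other.

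On the scale of CPM per kilobase of exon, which allows a rough comparison between genes, Hdc ranked highest in each group, followed by Slc18a2 and then Tph1. Exon lengths were the union of all annotated exons of a gene, and which isoforms were expressed is not known. The shares of Tph1 and Ddc per kilobase given above rest on the same lengths. Hdc averaged 256 ± 106 in B7hi HDM (SD, n = 3), 251 ± 112 in B7hi saline (n = 2), 455 ± 135 in B7low HDM (n = 3) and 697 ± 234 CPM per kilobase in B7low saline (n = 2). Slc18a2 averaged 214 ± 26.1, 183 ± 23.8, 251 ± 6.23 and 256 ± 36.3 CPM per kilobase in the same order of groups. Hdc and Slc18a2 were closer than their spread in both B7hi groups, but not in B7low. Tph1 came next, at 123 ± 29.0 in B7hi HDM, 15.5 ± 13.0 in B7hi saline, 141 ± 48.7 in B7low HDM and 156 ± 13.5 CPM per kilobase in B7low saline. The order of the other 4 depended on the population. Slc6a4 was last in B7hi HDM and B7hi saline, at 1.67 ± 0.476 and 0.942 ± 0.624, and next after Tph1 in B7low HDM and B7low saline, at 78.1 ± 20.0 and 111 ± 33.1 CPM per kilobase. Maob averaged 13.5 ± 8.95, 3.30 ± 0.697, 47.2 ± 11.1 and 75.0 ± 34.9 CPM per kilobase over the 4 groups, and Ddc 12.3 ± 6.43, 1.54 ± 1.46, 16.7 ± 4.13 and 15.5 ± 0.219. Among Maob, Ddc and Maoa the B7hi means were within 1 SD of each other with HDM.

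Genes whose log2 levels over the 10 libraries were most like each member were found among 6062 genes with a mean of at least 20 CPM; the libraries share the group differences and the correlations are descriptions. Among the genes most like Tph1 were Gp1ba (Pearson correlation 0.97) and Bcl2 (0.96), and among those most like Ddc were Gp1ba (0.96) and Gdap10 (0.94). Gp1ba, known as a platelet receptor subunit, had 64.4, 29.4 and 37.0 CPM in B7hi HDM and 2.27 and 14.1 CPM in B7hi saline, compared with 43.4, 72.8 and 61.9 CPM in B7low HDM and 78.7 and 45.1 CPM in B7low saline. Of the 12 platelet and megakaryocyte genes, Itga2b, Gp1ba and Itgb3 were expressed and the other 9 were at 8.13 CPM or less in all libraries. Among these 9, Treml1 and Tubb1 had no counts, Pf4 reached 3.91 CPM, Gp9 2.09 CPM and Ppbp 1.96 CPM. Itgb3 averaged 139 CPM in B7hi HDM, 43.2 CPM in B7hi saline, 23.5 CPM in B7low HDM and 26.9 CPM in B7low saline. The whole list summed to 371.2 to 1014 CPM in B7hi HDM, 292.5 to 324.2 CPM in B7hi saline, 497.4 to 536.5 CPM in B7low HDM and 393.4 to 528.4 CPM in B7low saline, mostly from Itga2b (241.2 to 713.2 CPM). Platelets carry serotonin and Slc6a4, and neuroendocrine cells of the airway make serotonin; the 9 neuroendocrine genes summed to 19.9 to 33.1 CPM in B7hi HDM, 18.1 to 20.9 CPM in B7hi saline, 24.4 to 31.6 CPM in B7low HDM and 23.4 to 31.5 CPM in B7low saline. Most of that came from Calca (13.6 to 30.6 CPM) and Syp (up to 15.7 CPM), while Chga reached 1.96 CPM and Resp18 had no counts. The part of platelets and neuroendocrine cells in the members' levels was not tested.

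Slc6a4 was most like Stard13, Slc31a2 and Nkd1 (0.99 each). Slc31a2, a copper transporter relative, had 6.25, 9.79 and 2.74 CPM in B7hi HDM and 0.756 and 7.83 CPM in B7hi saline. It had 253.5, 217.2 and 173.8 CPM in B7low HDM and 320.0 and 304.3 CPM in B7low saline. Slc31a2 was picked for its likeness to Slc6a4, so its separation of the populations adds no evidence. Maob was most like Adora3 (0.99), an adenosine receptor, and Il1rl1 (0.98), the receptor for interleukin 33, with Pros1 (0.98). Il1rl1 had 1439, 1112 and 791.8 CPM in B7hi HDM and 521.5 and 540.9 CPM in B7hi saline, compared with 1861, 1764 and 1678 CPM in B7low HDM and 2397 and 1975 CPM in B7low saline. Hdc was most like Pdxk (0.98), the kinase that makes its cofactor's active form, Fosb (0.98) and Cd97 (0.97). Slc18a2 was most like Dgki, Fgfr1 and Hpgds (0.95 each), and Maoa like Eif2ak2 (0.98), Zfp488 (0.97) and Grk4 (0.96). The 3 genes most like Maoa were highest in B7hi HDM library 2 and B7low saline library 2, as Maoa was. Eif2ak2 had 133.1 and 123.7 CPM there, Zfp488 528.4 and 513.4 CPM, and Grk4 2020 and 954.8 CPM. Their next highest values were 62.9, 176.6 and 358.4 CPM, in B7low saline library 1. The part of these 2 libraries in the Maoa correlations was not tested. Between members, the other high values were 0.94 for Slc18a2 and Maob 0.91 for Slc6a4 and Maob, 0.89 for Hdc and Slc18a2 and 0.87 for Hdc and Maob. Slc6a4 had 0.61 with Tph1 and 0.64 with Ddc, and Tph1 and Hdc had 0.39.

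**Figure D3:**
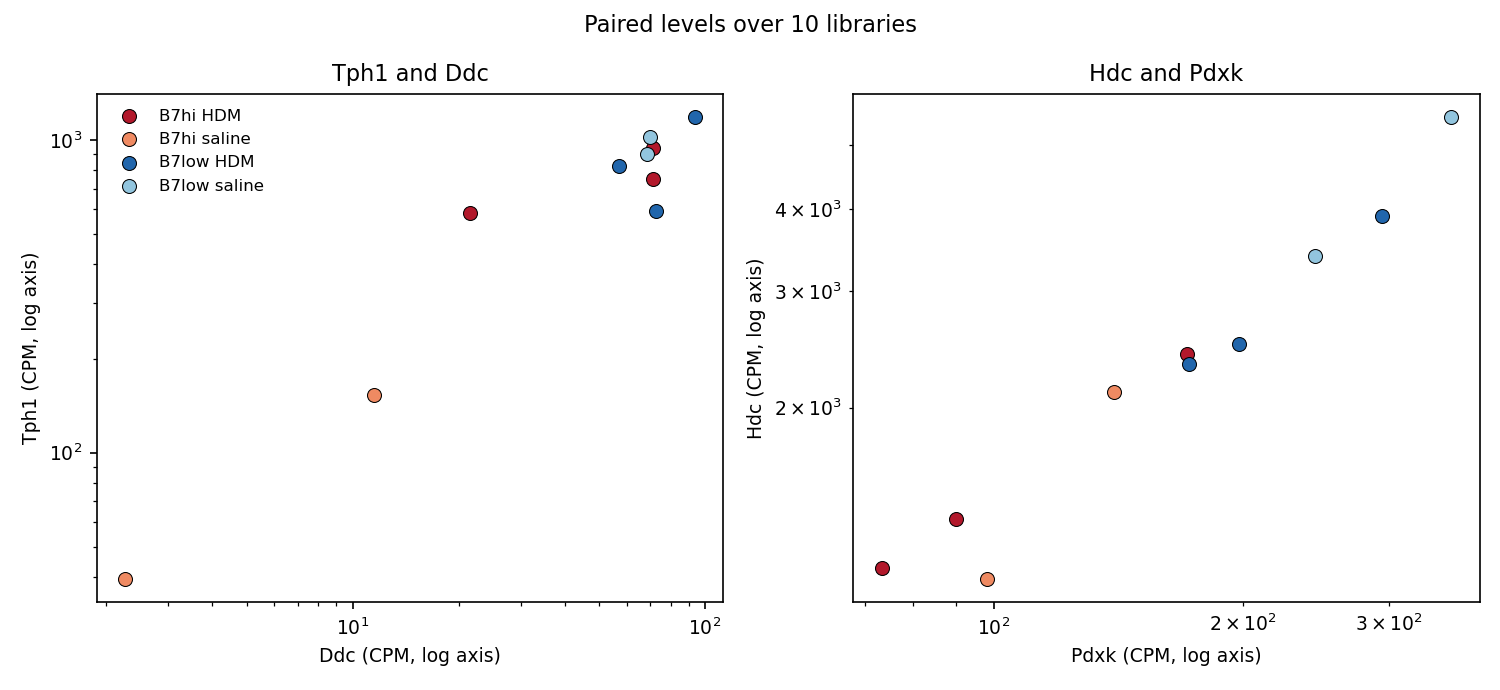
CPM (log axes) of Tph1 against Ddc and of Hdc against Pdxk, 1 point per library, coloured by group. In the Tph1 and Ddc panel the 2 B7hi saline libraries lie apart at the lower left (Tph1 at 39.3 and 152.4 CPM) and 2 of the 3 B7hi HDM libraries lie among the B7low libraries, whereas in the Hdc and Pdxk panel both B7hi groups lie toward the lower left, next to the lowest B7low HDM libraries.

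The wider amine pathway was read from 12 lists of 154 genes, 152 of them in the table and 96 tested. With saline, 5 of the 96 were lower in B7hi and 0 higher (26 at an unadjusted p under 0.05), a share close to the 6.54% of all genes called; averaged over both challenges, 12 were lower and 4 higher, against 6.08% and 5.8% of all genes. Their median log2 difference was -0.14 with saline and 0.03 averaged, against 0.03 and 0.03 over all genes. With HDM, Ndst2, Ext1 and Klf4 were lower and 0 were higher, 3 of the 96, which is near the 2.15% of all genes called lower. HDM against saline and the interaction gave 0 calls by edgeR in each case, with 5 (B7hi), 9 (B7low) and 11 (interaction) genes at an unadjusted p under 0.05, and DESeq2 called 1, 0 and 0.

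Among genes that supply the cofactors, Pcbd1 and Pdxk were lower in B7hi. Of 6 tested genes of tetrahydrobiopterin synthesis and recycling, Pcbd1, which recycles the cofactor, was lower in B7hi with saline (-3.35 ± 0.84 SE, adjusted p = 0.024) and averaged (-2.60 ± 0.54, adjusted p = 0.0042). It had 2.50, 5.87 and 4.11 CPM in B7hi HDM and 0.756 and 3.65 CPM in B7hi saline, compared with 17.6, 14.3 and 11.4 CPM in B7low HDM and 26.2 and 23.4 CPM in B7low saline, so no library of one population reached the other. It had 1 to 7 counts in each B7hi library and 13 to 22 in each B7low library, and like Slc6a4 it entered the fit through B7low. Gch1, the first enzyme of that cofactor's synthesis, was at -0.89 averaged (adjusted p = 0.28), and Qdpr, another recycling enzyme, at 0.10 (adjusted p = 0.88). Of 3 tested genes for pyridoxal phosphate, Pdxk was lower averaged (-1.15 ± 0.25, adjusted p = 0.0074). Pdxk had 171.3, 90.0 and 73.3 CPM in B7hi HDM and 139.8 and 98.2 CPM in B7hi saline, compared with 294.1, 197.7 and 171.9 CPM in B7low HDM and 356.7 and 244.1 CPM in B7low saline. No B7hi library reached the B7low range, although B7hi HDM library 1 came close to B7low HDM library 3.

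Of 7 tested amino acid carriers, Slc7a8, a carrier of large neutral amino acids, was lower in B7hi with saline (-2.63 ± 0.64, adjusted p = 0.039) and averaged (-1.42 ± 0.40, adjusted p = 0.045), and Slc38a9, a lysosomal amino acid sensor, averaged (-0.77 ± 0.24, adjusted p = 0.044). Slc7a8 had 727.5, 182.0 and 180.8 CPM in B7hi HDM and 114.1 and 79.4 CPM in B7hi saline, compared with 520.5, 464.4 and 302.7 CPM in B7low HDM and 592.7 and 598.6 CPM in B7low saline. B7hi HDM library 1 was the highest of all 10, and the other 4 B7hi libraries were below every B7low library. Slc3a2, the heavy chain shared by several of these carriers, was at -0.57 averaged (adjusted p = 0.14). Of the competing tryptophan route, 4 genes were tested: Haao, of the kynurenine pathway, was called higher (adjusted p = 0.042) at no more than 10.4 CPM and with no counts in B7low saline, and Wars, the tryptophan tRNA synthetase, was at 0.32 (adjusted p = 0.54).

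Of 16 tested subunits of the proton pump that drives Slc18a2, edgeR and DESeq2 each called 0 in all 6 comparisons, where edgeR called at most 11.9% and DESeq2 at most 13.4% of all genes, with at most 1 at an unadjusted edgeR p under 0.05 in any of them. The most abundant, Atp6v0e and Atp6ap2, were at -0.10 and -0.06 averaged (adjusted p = 0.78 and 0.91). Among 3 other amine transporters tested, Slc22a3, an organic cation transporter that carries histamine and serotonin, had 44.4, 43.1 and 71.9 CPM in B7hi HDM and 118.7 and 107.5 CPM in B7hi saline, compared with 2.71, 22.8 and 79.0 CPM in B7low HDM and 8.74 and 6.69 CPM in B7low saline. It was at 2.203 ± 0.64 averaged (SE, adjusted p = 0.054) and 3.86 ± 1.08 with saline (adjusted p = 0.065), and did not pass. Of the 5 B7low libraries, 4 were below every B7hi library, and B7low HDM library 3 was above all 3 B7hi HDM libraries.

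Of 21 granule matrix genes, which make the proteoglycans that hold amines, Ndst2, Ext1 and Hs2st1 of heparin synthesis were lower in B7hi averaged (-1.38, -1.99 and -1.06) and Chsy1 of chondroitin sulfate synthesis was higher (1.14 ± 0.35, adjusted p = 0.047). Srgn, the core protein serglycin, was at 0.32 (adjusted p = 0.27) and Papss2, which makes the sulfate donor, at 0.04 (adjusted p = 0.91). Among other breakdown genes, Aldh2, which oxidises the aldehydes left by monoamine oxidases, was higher (0.60 ± 0.19, adjusted p = 0.048). Akr1a1, an aldehyde reductase, was at 0.43 (adjusted p = 0.11). The histamine-degrading enzymes were low: Hnmt averaged 4.53 CPM over the 10 libraries and Aoc1 0.334 CPM. Of 9 tested genes for other amines, Sat1, which acetylates polyamines, was lower averaged (-0.68 ± 0.20, adjusted p = 0.035), and Th, for catecholamine synthesis, had no counts in any library. Tph2, the neuronal counterpart of Tph1, averaged 1.36 CPM.

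Receptors for the amines were scarce. None of 14 serotonin receptor genes in the table was abundant enough to be tested, the highest, Htr3b, averaging 1.77 CPM. Of 4 histamine receptors 2 were tested: Hrh4 was lower in B7hi averaged (-1.09 ± 0.32, adjusted p = 0.035), and Hrh2 was at 2.02 ± 1.01 (adjusted p = 0.22) with a mean of 4.05 CPM. Hrh4 had 19.4, 21.5 and 15.8 CPM in B7hi HDM and 10.6 and 27.7 CPM in B7hi saline, compared with 52.9, 42.9 and 55.6 CPM in B7low HDM and 38.5 and 26.8 CPM in B7low saline. With HDM the populations were apart, while with saline they overlapped.

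Of 15 transcription factors tested, Klf4 (-3.18 ± 0.38, adjusted p = 3.5e-05) and Mitf (-0.73 ± 0.21, adjusted p = 0.032) were lower in B7hi averaged and Runx1 was higher (1.02 ± 0.27, adjusted p = 0.020). Klf4 averaged 6.04 CPM in B7hi HDM and 3.98 CPM in B7hi saline, against 33.7 CPM in B7low HDM and 58.9 CPM in B7low saline. Like Slc6a4, Klf4 entered the fit through its B7low libraries, where it is high. Mitf, a master regulator of mast cells, had 175.6, 105.7 and 101.4 CPM in B7hi HDM and 144.3 and 122.2 CPM in B7hi saline, compared with 219.6, 163.3 and 156.1 CPM in B7low HDM and 216.8 and 311.0 CPM in B7low saline. B7hi HDM library 1 overlapped B7low HDM, and the saline groups were apart. Gata2, the most abundant of these factors, was at -0.43 ± 0.18 (adjusted p = 0.15). The number of pathway genes called averaged over both challenges depended on single libraries: it was 6 without B7hi saline library 1, 7 without B7hi saline library 2, 9 without B7low HDM library 1 and 10 without B7hi HDM library 2, B7low saline library 1 or B7low saline library 2.

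**Figure D4:**
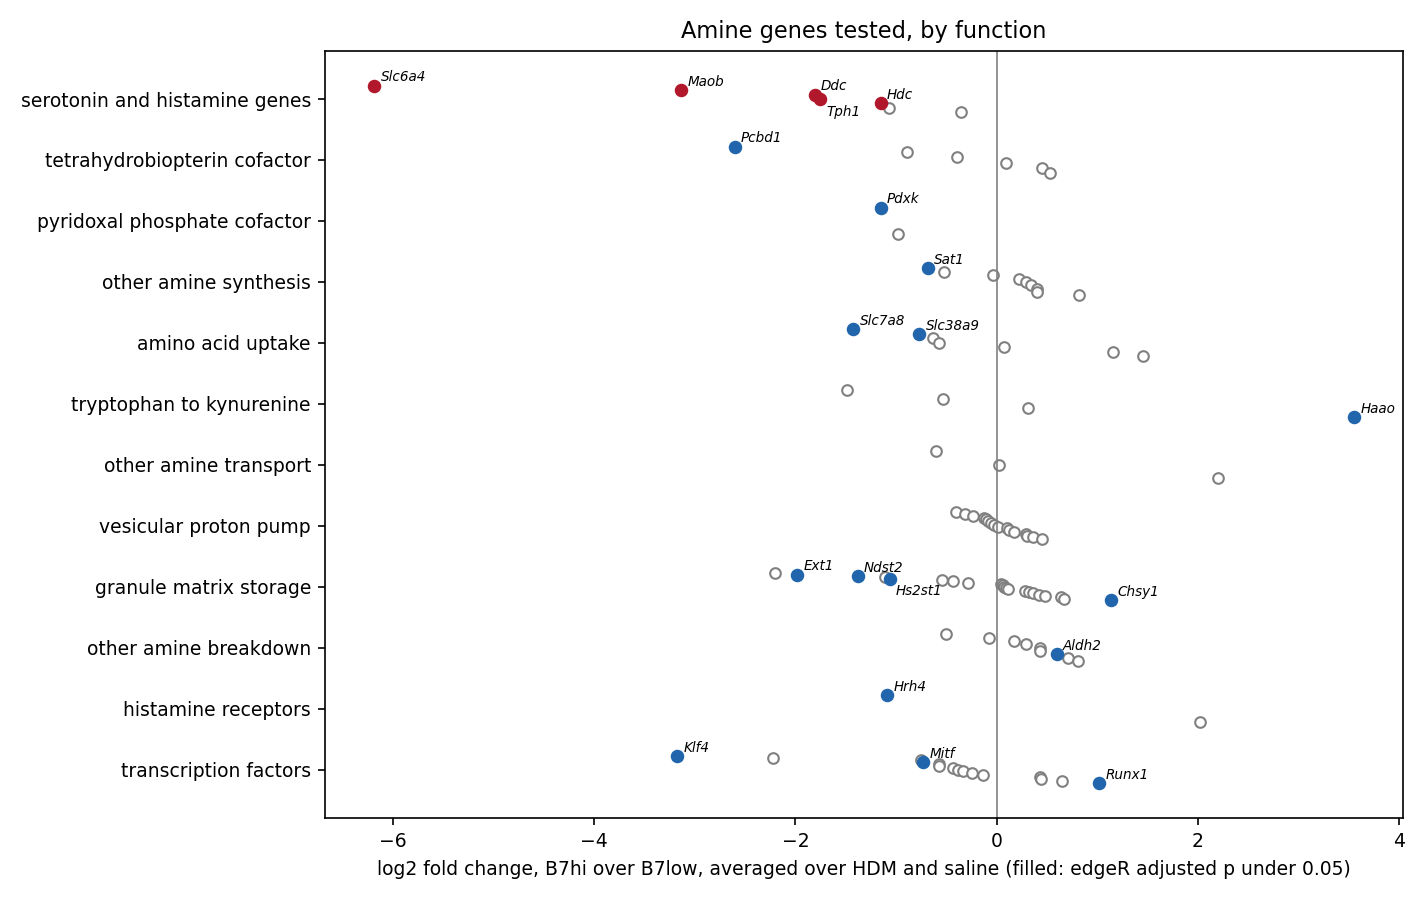
Log2 fold changes, B7hi over B7low averaged over both challenges, of the tested genes reported here from each amine pathway list, 1 point per gene, with genes past an adjusted p of 0.05 filled. The members run down to -6.19 (Slc6a4), while the 16 proton pump subunits lie on both sides of 0 and are unfilled; the position of Haao depends on the prior count, as it had no counts in B7low saline.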

How the data were processed

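Lower-airway mast cells were profiled by SmartSeq2 in 10 libraries. The authors deposited 1 table of raw read counts per gene symbol, 1 column per library, assigned to groups by sample title. Per the submitters' processing notes, TopHat2 2.0.10, Cufflinks 2.2.1, DESeq2 and the build mm10 were used; how reads were counted, and with which strand setting, is not stated there or in the labels. Antisense partners may thus add reads to a gene.

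The filter filterByExpr left 10533 of 22815 symbols, TMM factors were computed, and edgeR 4.0.16 was run (glmQLFit, robust, 1 mean per group; R 4.3.3), two-sided, with Benjamini-Hochberg adjustment over all genes tested and a threshold of 0.05. Standard errors are the fold change over the square root of F. Library totals ran from 525983 to 1725818 counts and the common coefficient of variation was 0.359. Within groups, library pairs differed by 6.38 to 10.5 times counting noise (chi-square per degree of freedom, 8 pairs), so no library was counted as a copy of another. DESeq2 1.42.0, other scalings and filters, a replicate block, and leaving out each library were alternatives. The script was tested on simulated counts. Likeness used log2 CPM with a prior count of 2. Positions are from GENCODE on GRCm38, and promoters from RefSeq, which held 6 of the 7 members.

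Members and lists were chosen with earlier results of these data known. Named genes were the members, every list gene past the threshold and up to 2 more per list by mean CPM, and the 3 genes most like each member. Some genes meeting this rule are left unreported.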

Additional observations from a re-analysis of the deposited data

How the results depend on the processing

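Under 8 other settings (7 for the interaction and the averaged comparison), members called numbered 4 to 6 with saline, 1 to 3 with HDM, 0 with HDM against saline in B7low, and 5 or 6 averaged, with 5, 2, 0 and 5 as reported. HDM against saline in B7hi gave 0 as reported, 3 by DESeq2, 3 with no count filter and 1 with B7hi HDM 2 and B7low saline 2 both left out; the interaction gave 0 as reported and 3 by DESeq2 and with no count filter. With HDM, leaving out both libraries left 1 member. Leaving out 1 library in turn gave 3 to 5 members with saline, 1 to 2 with HDM, 0 to 2 for HDM in B7hi, 0 to 0 for HDM in B7low, 0 to 1 for the interaction and 4 to 6 averaged.

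Other pathway genes called with saline, 5 as reported, were 13 with library size alone, 11 by DESeq2, 12 with no count filter and 10 with the replicate block. With HDM, 3 as reported, they were 6 by DESeq2, 6 with no count filter, 5 with only the groups compared and 5 with the replicate block. No count filter gave 2 for HDM in B7hi, 1 for HDM in B7low and 2 for the interaction, DESeq2 gave 1 for HDM in B7hi, and leaving out both libraries gave 9 averaged. Leaving out 1 library gave 3 to 9 with saline, 0 to 6 with HDM and 6 to 14 averaged. With saline the count was 3 without B7hi saline 1 or 2, 8 without B7low HDM 1 or 3 and 9 without B7hi HDM 1; with HDM it was 6 without B7hi HDM 1 and 0 without B7hi HDM 3.

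Direction turned only where the reported difference had not passed. Maoa with HDM was -0.085 with the replicate block and -1.22 without both libraries (0.48 as reported). Hdc for HDM in B7hi was -0.14 with library size alone and -0.020 with no filter. Slc18a2 for HDM in B7low was 0.10 with library size alone, 0.028 with no filter and 0.020 with the block, and its interaction was -0.040 with library size alone. With 1 library left out, Maoa with HDM ran from -1.24 to 1.05, Tph1 with HDM from -0.41 to 0.10, Hdc for HDM in B7hi from -0.36 to 0.56, Slc18a2 for HDM in B7low from -0.16 to 0.16, Ddc for HDM in B7low from -0.12 to 0.26 and Tph1 for HDM in B7low from -0.48 to 0.035.

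The Hdc call with saline was also lost with library size alone (adjusted p = 0.058), with a filter of 5 CPM in 2 libraries (0.054), with only the groups compared (0.10) and without both libraries (0.064), and Maob with HDM without both libraries (0.11); the cause was not tested. The Hdc call with saline held by DESeq2 (adjusted p = 0.0043), with no filter (4.3e-04), with the replicate block (0.0025) and with DESeq2 size factors in edgeR (0.041). Hdc with HDM was called with the replicate block (0.041) and no filter (0.033), and Maoa with saline by DESeq2 (0.044) and no filter (0.012). The Slc6a4 calls held in all 10 fits that left out 1 library, at -7.73 to -6.29 with saline, -5.77 to -5.40 with HDM and -6.67 to -5.95 averaged. Scaling by library size alone moved the median of all genes with saline to 0.30, against 0.03 as reported.

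Replicate numbers are shared between groups. Over all genes tested, same-numbered libraries under 1 challenge did not deviate together (correlations of -0.11 to 0.041), so the main fit did not pair them. A correlation over all genes cannot exclude pairing. With the block, 5 members were called with saline, 3 with HDM and 5 averaged. Its edgeR adjusted p was lower than reported for Hdc with saline (0.0025) and for Maob (6.9e-06 with saline, 0.0015 with HDM). It was higher than reported for Tph1 and Ddc with saline (0.0044 and 0.0072). Groups of 2 or 3 libraries, and 3 to 12 counts of Slc6a4 in each B7hi library, limit the precision. Those 2 libraries, B7hi HDM 2 and B7low saline 2, were left out together because both are high in Kcnq1ot1.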
